A study of Rattus norvegicus with 48 samples.

Results

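The let-7 and miR-98 family was followed in rat blood plasma through the 5p arms of its 9 members, let-7a, let-7b, let-7c, let-7d, let-7e, let-7f, let-7g, let-7i and miR-98, which are 9 of the 645 mature miRNAs listed in the deposited counts. The members were taken by name. At week 8 after surgery let-7g-5p and let-7i-5p were lower than at baseline in 12 of 12 rats each, and let-7b-5p lay just under the threshold. The other 6 members were not called in the main analysis. Other scalings, another filter, the rat as a block or leaving out single rats called some or all of them. No member was called between strong and weak regenerators at any time point.

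Small RNA of plasma was sequenced from 12 male rats, 12 weeks old and Sprague-Dawley per the study's methods although its text also names Wistar, that had received a trephine defect of the calvaria, the roof of the skull. The 6 strong and 6 weak regenerators had been selected by microCT of the newly formed bone out of a larger set of treated animals, and each rat was bled at baseline, before surgery, and at weeks 1, 4 and 8, which gave 48 samples. Both groups mix empty defects and collagen hydroxyapatite scaffolds with or without a therapeutic plasmid or extracellular vesicles, non-augmented scaffolds occur among the strong regenerators alone, and the treatment of each rat was not mapped here. Baseline samples are labelled unknown for regeneration and were placed with their animal's group, and there were no animals without surgery, so that time after surgery and age cannot be told apart.

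The let-7 miRNAs are short RNAs that guide Argonaute proteins to messenger RNAs and repress them, and the pairing depends mainly on the seed, bases 2 to 8 of the mature strand. The family is known for rising as cells leave the progenitor state, for repressing growth and cell cycle genes such as Hmga2, Lin28, Ras and Myc, and for being held back by the RNA-binding proteins Lin28a and Lin28b, which bind let-7 precursors. Members are encoded at several places in mammalian genomes, and some are transcribed together with miR-99, miR-100 and miR-125 miRNAs. In blood, let-7 miRNAs are carried by blood cells and platelets and are also found free of cells in plasma, in vesicles and protein complexes.

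The mature sequences from RefSeq (assembly GRCr8, matched by name for 9 of 9 members) are shown because the members differ by so few bases that their reads can be confused. Each has 22 bases, written 5′ to 3′ with the seed in capitals.
rno-let-7a-5p: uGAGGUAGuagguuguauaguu
rno-let-7b-5p: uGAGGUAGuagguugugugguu
rno-let-7c-5p: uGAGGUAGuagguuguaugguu
rno-let-7d-5p: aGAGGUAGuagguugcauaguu
rno-let-7e-5p: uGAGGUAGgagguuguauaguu
rno-let-7f-5p: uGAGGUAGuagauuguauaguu
rno-let-7g-5p: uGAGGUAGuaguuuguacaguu
rno-let-7i-5p: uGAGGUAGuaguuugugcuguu
rno-miR-98-5p: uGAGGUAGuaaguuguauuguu

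The seed was the same in all 9 members, and 0 other miRNAs of the 583 in the table with a RefSeq sequence held it. Counted from 1 at the 5′ end and relative to let-7a-5p, let-7c-5p differed by A19G, let-7e-5p by U9G and let-7f-5p by G12A, that is by 1 base each. let-7b-5p carried A17G and A19G, let-7d-5p U1A and U16C, let-7g-5p G12U and U18C, miR-98-5p G11A and A19U, and let-7i-5p G12U, A17G, U18C and A19U. Of the 36 pairs of members, 4 differed by 1 base (a and c, a and e, a and f, b and c) and the most distant pair, let-7d-5p and let-7i-5p, by 6. Since the authors allowed a mismatch when reads were assigned to miRBase, reads of the 5 members within 1 base of another (a, b, c, e and f) could have been exchanged among them. Over the full length, let-7d, let-7g, let-7i and miR-98 were at least 2 bases away from every other member. The authors kept reads from 17 bases on, and a read that ends before base 19 can lie 1 base from another member. Examples are let-7g-5p with let-7i-5p (A17G, A19U) and let-7a-5p with miR-98-5p (G11A, A19U). let-7a-5p, let-7c-5p and let-7f-5p each come from 2 hairpins, which their mature reads do not tell apart.

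Samples held between 393259 and 1586398 miRNA reads in all (median 796311). Levels are given as reads per 1000000 miRNA reads (RPM). In the 12 week 8 samples, reads of the extraction spike-in UniSp2, a synthetic RNA added to each sample, ranged from 91.1 to 144 per 1000 miRNA reads, against 23.3 to 60.4 in the 36 earlier samples, without overlap. RPM and the tests compare shares of miRNA reads, and lower miRNA content and a change in how the week 8 samples were handled cannot be told apart. In plasma, fewer cells that release a miRNA and less miRNA released per cell cannot be told apart either.

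All 9 members were detected, and let-7i-5p led in every sample. The family made up 0.616% to 3.70% of the miRNA reads, with a median of 1.78%. let-7i-5p ranged from 3340 to 21088 RPM (median 12189), and it exceeded let-7g-5p in 48 of 48 samples. Over all samples the mean level then fell from let-7g-5p (2252 RPM) to let-7f-5p (1736 RPM), let-7c-5p (978 RPM), miR-98-5p (650 RPM), let-7b-5p (526 RPM), let-7a-5p (98.7 RPM), let-7d-5p (31.3 RPM) and let-7e-5p (30.4 RPM). Several neighbours in that order changed places between samples. let-7g-5p exceeded let-7f-5p in 33 samples, 11 of 12 at each of the first 3 time points and 0 of 12 at week 8. let-7c-5p exceeded miR-98-5p in 36 samples, miR-98-5p exceeded let-7b-5p in 38, and let-7d-5p exceeded let-7e-5p in 30, so these pairs were not ranked beyond their spread. let-7b-5p exceeded let-7a-5p, and let-7a-5p exceeded let-7d-5p, in 48 of 48 samples each. The lowest counts were thin, with 4 to 104 reads of let-7d-5p and 0 to 110 reads of let-7e-5p per sample, the latter at 0 in 2 samples.

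**Figure D1:**
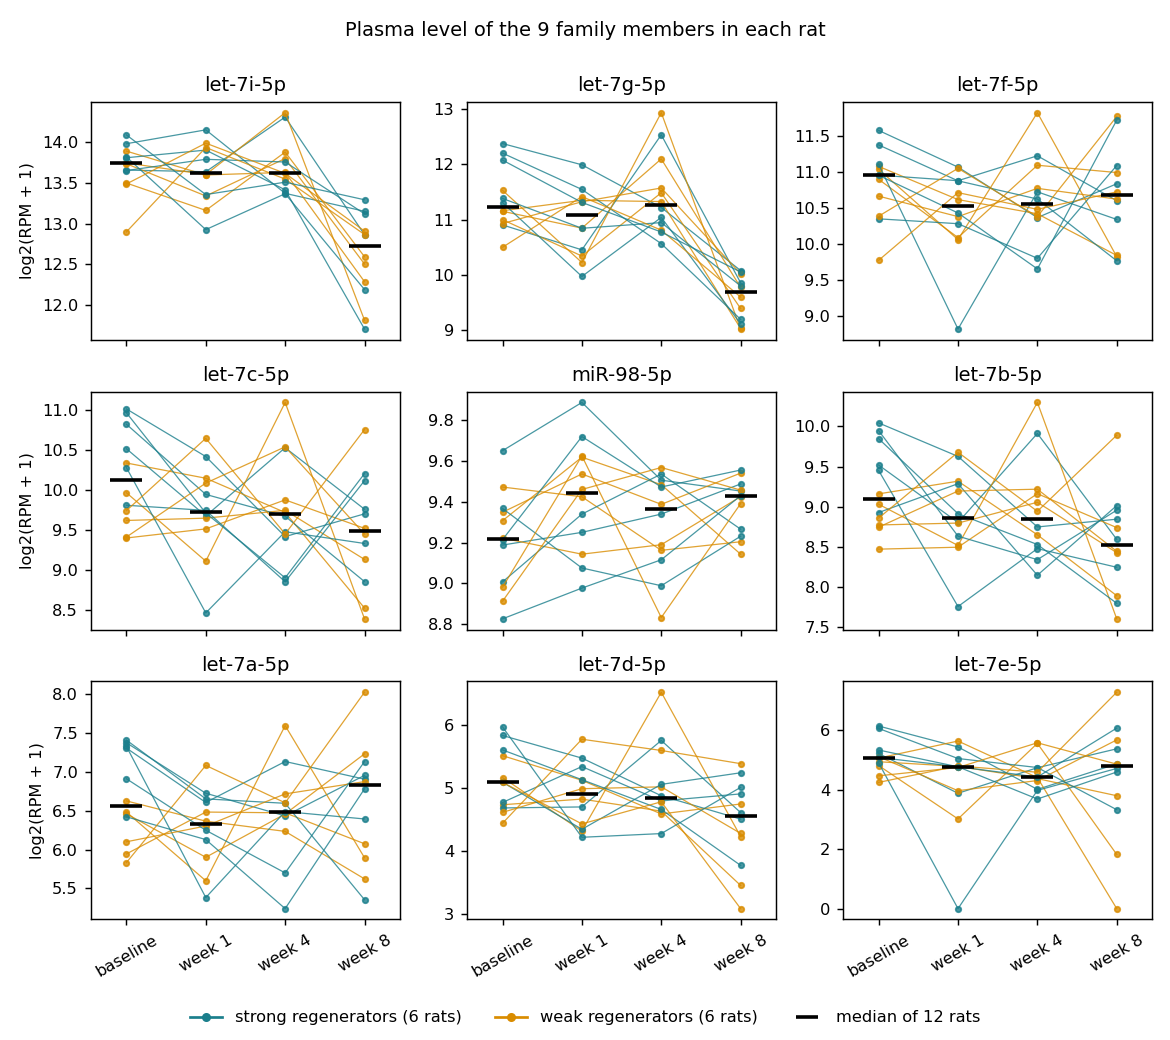
Level of each member, as log2(RPM + 1), at baseline and weeks 1, 4 and 8, with a line for each of the 12 rats (strong regenerators in turquoise, weak in orange) and the median as a black bar. In the panel of let-7g-5p all 12 week 8 points (519 to 1080 RPM) lie below all baseline points (1447 to 5312 RPM), while the points of miR-98-5p stay between 453 and 945 RPM at all time points.

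Comparisons with baseline asked how circulating miRNAs changed during healing, with strong and weak regenerators together. At week 1, 0 of the 7 members that passed the abundance filter were called by edgeR, against 50 of 232 miRNAs tested (21.6%), with let-7d-5p and let-7e-5p below the filter. The member nearest to a call was miR-98-5p, which ranged from 453 to 802 RPM (median 595) at baseline and from 503 to 945 RPM (median 695) at week 1. The time points overlapped, and 9 of 12 rats were higher. Its log2 fold change of 0.33 (SE 0.13) had an FDR of 0.0501 by edgeR, and it was the 1 member with an unadjusted p under 0.05. DESeq2 called it (log2 fold change 0.34, FDR 0.0448), as did edgeR with RLE scaling, with another abundance filter, without rat 6 (FDR 0.047) or without rat 21 (FDR 0.0479), so week 1 gives no firm answer for miR-98-5p. The other 6 members tested had log2 fold changes between -0.31 (let-7a-5p) and 0.05 (let-7i-5p).

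At week 4, edgeR called 0 of 9 members, beside 27 of 645 miRNAs called (4.19%), and DESeq2 called 0 members. No member had an unadjusted p under 0.05 by edgeR, against 115 of 645 miRNAs. The log2 fold changes ranged from -0.52 (SE 0.38, let-7e-5p) to 0.29 (SE 0.25, let-7g-5p). let-7g-5p spread widely at this time point, from 1515 to 7824 RPM (median 2475), and was lower than at baseline in 5 rats and higher in 7. let-7i-5p ranged from 10575 to 21088 RPM (median 12629), again on both sides of its baseline levels.

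At week 8, 3 of 9 members were called, all lower than at baseline, where edgeR called 250 of 620 miRNAs (40.3%) and 162 of them lower (26.1%). The members' share was thus near that of all miRNAs, and the sizes separated the members more than the count did. let-7g-5p, encoded on its own in mammals within an intron of the Wdr82 gene, changed most. It ranged from 1447 to 5312 RPM (median 2411) at baseline and from 519 to 1080 RPM (median 825) at week 8. No week 8 sample reached the lowest baseline sample, a separation in the lower direction that 30 of 310 miRNAs with a mean of at least 10 RPM showed (9.68%). The log2 fold change of let-7g-5p was -1.79 (SE 0.26, FDR 8.33e-08), with a fall in 12 of 12 rats that ranged from -3.01 to -0.90 on the log2 scale.

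let-7i-5p, the member that shares G12U and U18C with let-7g-5p, ranged from 7639 to 17440 RPM (median 13697) at baseline and from 3340 to 10043 RPM (median 6821) at week 8. The time points overlapped at their edges, but each of the 12 rats was lower at week 8 than before surgery. The log2 fold change was -0.97 (SE 0.17, FDR 6.78e-06).

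let-7b-5p, let-7c-5p and let-7d-5p had nearly the same estimate at week 8 and lay on both sides of the threshold. let-7b-5p ranged from 354 to 1055 RPM (median 546) at baseline and from 193 to 948 RPM (median 366) at week 8. It was called with a log2 fold change of -0.58 (SE 0.24, FDR 0.0492), lower in 9 of 12 rats. let-7c-5p ranged from 673 to 2064 RPM (median 1119) at baseline and from 333 to 1726 RPM (median 714) at week 8, with a log2 fold change of -0.58 (SE 0.25, FDR 0.0537). let-7d-5p ranged from 20.8 to 61.8 RPM (median 33.2) at baseline and from 7.51 to 40.9 RPM (median 22.6) at week 8, with a log2 fold change of -0.58 (SE 0.26, FDR 0.0704). With the rat as a block, 5 members were called lower, let-7c-5p (log2 fold change -0.60, FDR 0.0403) and let-7d-5p (-0.63, FDR 0.0351) among them, as was the case without rat 26, whose week 8 sample held the highest let-7b-5p and let-7c-5p (let-7c-5p without it -0.79, FDR 0.00747, let-7d-5p -0.75, FDR 0.0208). The call of let-7b-5p was lost when any of 10 rats (2, 3, 5, 6, 7, 17, 21, 23, 25 or 29) was left out, with FDR values from 0.0555 to 0.248 and log2 fold changes no nearer to 0 than -0.37, and with DESeq2 (log2 fold change -0.44, FDR 0.129).

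The remaining 4 members were not called. let-7f-5p ranged from 876 to 3063 RPM (median 1989) at baseline and from 872 to 3503 RPM (median 1637) at week 8, with a log2 fold change of -0.04 (SE 0.23, FDR 0.909). let-7a-5p had medians of 93.1 and 113 RPM and a log2 fold change of 0.07 (SE 0.24), and let-7e-5p medians of 32.8 and 26.8 RPM and a log2 fold change of 0.08 (SE 0.38). Both were lower in some rats and higher in others, 6 and 6 for let-7a-5p and 7 and 5 for let-7e-5p. With single rats left out, the log2 fold change lay between -0.19 and 0.31 for let-7a-5p and between -0.49 and 0.37 for let-7e-5p. The week 8 sample of rat 26 held 155 RPM of let-7e-5p, where the other weak regenerators had at most 50.4 RPM. miR-98-5p ranged from 565 to 751 RPM (median 688) at week 8, a narrower range than at baseline, and had a log2 fold change of 0.23 (SE 0.13, FDR 0.158).

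**Figure D2:**
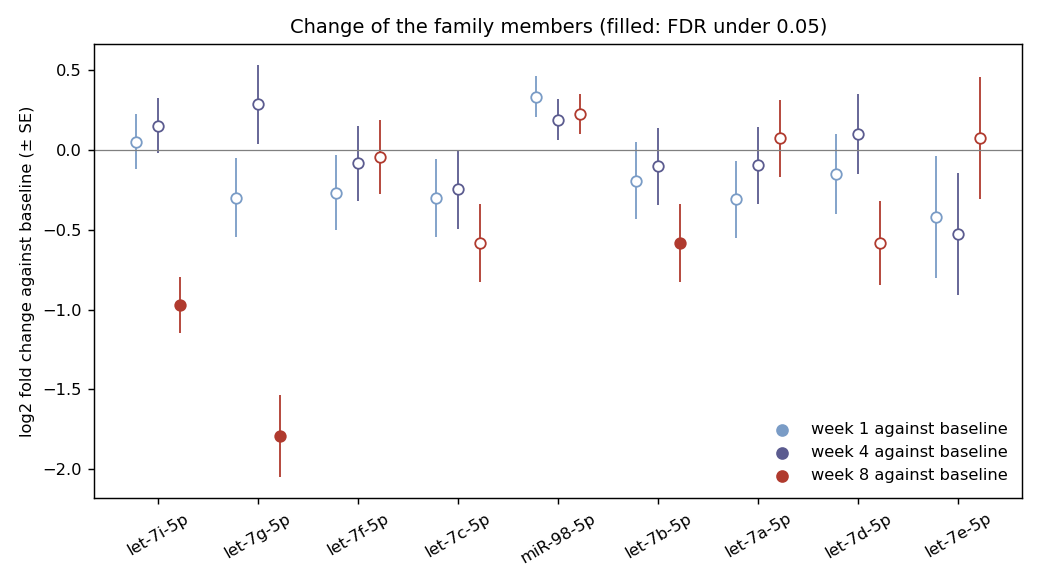
Log2 fold change against baseline with its SE for each member at weeks 1, 4 and 8 (edgeR, 12 rats per time point), members ordered by mean level and filled symbols marking an FDR under 0.05. The filled symbols are those of let-7g-5p (-1.79), let-7i-5p (-0.97) and let-7b-5p (-0.58), all at week 8.

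The scaling sets the zero of these week 8 values. Over the 310 miRNAs that averaged at least 10 RPM, the log2 fold changes had a median of -0.12 with TMM, of 0.01 with RLE and of -2.01 when counts were scaled to UniSp2 reads. Relative to that median, let-7g-5p was at -1.67, -1.66 and -1.65 with TMM, RLE and UniSp2 scaling, let-7i-5p at -0.85, -0.85 and -0.84, and miR-98-5p at 0.35, 0.35 and 0.32. A change of scaling shifts all miRNAs by nearly the same amount, so these values are alike by construction and give the place among other miRNAs only. The calls themselves moved with the scaling. RLE scaling called let-7g-5p and let-7i-5p lower and miR-98-5p higher (log2 fold change 0.36, FDR 0.0184), with 105 higher and 138 lower among all miRNAs against 88 and 162 with TMM, and UniSp2 scaling called all 9 members lower, with let-7a-5p at -1.81, let-7e-5p at -1.75 and miR-98-5p at -1.69 on the log2 scale. DESeq2 (log2 fold change 0.37, FDR 0.0107) and edgeR with another abundance filter (0.38, FDR 0.00789) also called miR-98-5p higher. So did edgeR without rat 3, 5 or 23 (FDR 0.0388, 0.0175 and 0.0244).

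Markers of other cells moved at week 8 as well, in directions that hold for TMM scaling. Of 5 leukocyte miRNAs, 3 fell (miR-142-5p, miR-146a-5p and miR-150-5p) and 2 rose (miR-142-3p and miR-155-5p), and their summed level ranged from 9162 to 20855 RPM against 15728 to 59469 RPM at baseline. Of 4 liver miRNAs, 2 fell and 1 rose (summed 3670 to 11763 RPM against 4558 to 14656 RPM), of 6 red blood cell miRNAs 3 rose and 1 fell (272042 to 380829 RPM against 200449 to 303666 RPM), and 0 of 4 platelet miRNAs (59658 to 97740 RPM against 65762 to 90456 RPM) and 0 of 4 muscle miRNAs (855 to 7870 RPM against 312 to 9869 RPM) were called. No marker was at 0 throughout, with miR-206-3p at 0 in 7 of the 48 samples and miR-1-3p in 1. Across the 48 samples, which include 4 from each rat, the log2 level of let-7g-5p had a Pearson r of 0.84 with the leukocyte sum, 0.67 with the liver sum, -0.40 with the red blood cell sum, -0.76 with UniSp2 reads and 0.65 with the total count, and let-7i-5p one of 0.71, 0.57, -0.21, -0.79 and 0.56. These r values pool the 4 time points and thus include the shifts at week 8, and no r within weeks is given for them. The part of the cell markers, the UniSp2 reads and the total count in the week 8 values was not tested.

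Set against week 4, the week 8 samples gave 3 members called lower, let-7g-5p, let-7i-5p and let-7d-5p, beside 213 of 532 miRNAs called (40.0%) and 137 called lower (25.8%). let-7g-5p had a log2 fold change of -2.08 (SE 0.26, FDR 3.65e-09) and let-7i-5p of -1.13 (SE 0.17, FDR 3.89e-07), and both were lower in 12 of 12 rats. Neither overlapped between the time points, as for 23 of 310 miRNAs (7.42%), since the highest week 8 level of let-7i-5p (10043 RPM) lay below its lowest week 4 level (10575 RPM). let-7d-5p had a log2 fold change of -0.68 (SE 0.26, FDR 0.0316). Its call was lost without any of 8 rats (3, 5, 6, 7, 16, 17, 23 or 25), with FDR values from 0.0532 to 0.309 and the smallest change, -0.35, without rat 7. The call of let-7d-5p was also lost with DESeq2 (FDR 0.0813), RLE scaling (FDR 0.0908), another abundance filter (FDR 0.0695) and a fit of the 2 time points alone (FDR 0.0793). let-7b-5p was called without rat 26 (-0.68, FDR 0.0215).

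The make-up of the family shifted at week 8 because its members changed unequally. let-7i-5p held a mean of 64.9% ± 4.23 (SD, n = 12) of the family's reads at baseline and 58.8% ± 4.77 at week 8, with 68.9% ± 3.59 and 66.8% ± 4.95 at weeks 1 and 4. let-7g-5p held 13.3% ± 3.00 at baseline and 7.25% ± 1.14 at week 8. The share of let-7f-5p was 9.16% ± 1.46 at baseline and 15.6% ± 2.99 at week 8, where its lowest sample (11.9%) lay above the highest of baseline (11.0%). miR-98-5p held 3.00% ± 0.771 at baseline and 6.49% ± 1.84 at week 8. These shares sum to a fixed total, so a fall of let-7i-5p and let-7g-5p raises the others. The ratio of let-7g-5p to let-7f-5p, which needs no scaling between samples, ranged from 0.962 to 2.17 (median 1.43) at baseline, from 0.743 to 2.22 (median 1.53) at week 1, from 0.958 to 2.50 (median 2.01) at week 4 and from 0.297 to 0.672 (median 0.505) at week 8. All 12 week 8 ratios lay below those of the 36 earlier samples. How many ratios or shares of other miRNAs separated week 8 as fully was not counted, so neither this nor the let-7f-5p share is shown to be unusual. The ratio of let-7i-5p to let-7g-5p was higher at week 8 (5.70 to 10.002, median 8.43) than at baseline (3.05 to 6.75, median 5.47), with overlap. Summed, the 5 members within 1 base of another held 18.6% ± 2.60 of the family at baseline and 27.2% ± 5.34 at week 8, a sum that an exchange of reads among them leaves as it is.

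**Figure D3:**
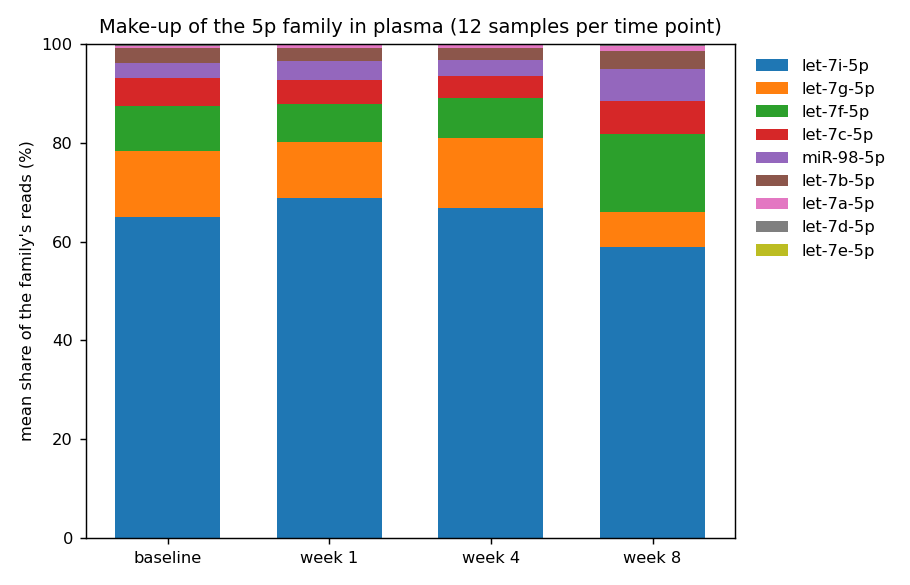
Mean share of the family's reads taken by each member at each time point (12 samples each, stacked to 100%). let-7i-5p takes 64.9% at baseline and 58.8% at week 8, let-7g-5p 13.3% and 7.25%, and let-7f-5p 9.16% and 15.6%.

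The opposite strands of the hairpins, the 3p arms, were listed for 12 hairpins and are read as context. For let-7b, let-7f, let-7g, let-7i and miR-98 the 5p arm exceeded the 3p arm in 48 of 48 samples, by a median of 11.0 on the log2 scale for let-7i at baseline. For let-7d the order was inverted, since let-7d-3p exceeded let-7d-5p in 48 of 48 samples, with a median of 343 RPM against 33.2 RPM at baseline. let-7a-1-3p exceeded let-7a-5p in 47 of 48 samples (median 341 against 93.1 RPM at baseline), but its counts were identical to those of let-7c-2-3p in all samples. The RefSeq sequences of 4 such arms show why that pair cannot be told apart.
rno-let-7a-1-3p: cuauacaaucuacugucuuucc
rno-let-7c-2-3p: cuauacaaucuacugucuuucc
rno-let-7d-3p: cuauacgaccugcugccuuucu
rno-let-7f-2-3p: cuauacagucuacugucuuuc

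At week 8 the 3p arms also moved in both directions, with 5 of 12 rows lower and 1 higher, the identical pair counted as 2 rows. let-7d-3p ranged from 147 to 625 RPM (median 343) at baseline and from 66.9 to 166 RPM (median 106) at week 8, with a log2 fold change of -1.65 (SE 0.24, FDR 1.15e-07). The pair of let-7a-1-3p with let-7c-2-3p ranged from 255 to 432 RPM (median 341) at baseline and from 86.5 to 270 RPM (median 179) at week 8, with a log2 fold change of -0.89 (SE 0.12, FDR 2.61e-08), where let-7a-5p was not called. The 3p arms of let-7b (-0.91, SE 0.32, FDR 0.0205) and let-7i (-1.11, SE 0.43, FDR 0.0327) were lower too, at median levels of at most 12.8 RPM. Neither of these was firm, since RLE scaling gave FDR values of 0.0528 and 0.0578, DESeq2 lost let-7i-3p (FDR 0.0731), and leaving out 1 rat lost the call of let-7b-3p for rats 6, 7, 23 and 29 (FDR up to 0.115) and that of let-7i-3p for rats 3, 6, 17, 23, 25 and 29 (FDR up to 0.0982). let-7f-2-3p, from the hairpin that lies beside miR-98 in mammals, was higher, from 8.63 to 37.5 RPM (median 27.8) at baseline and from 36.6 to 78.8 RPM (median 45.8) at week 8, with a log2 fold change of 0.97 (SE 0.20, FDR 6.21e-05) that turned to -0.96 (FDR 0.000177) with UniSp2 scaling, where let-7f-5p had -0.04 and -1.92. Against week 4, the arms called at week 8 were the identical pair, let-7d-3p and let-7i-3p (lower), let-7f-2-3p (higher at 1.05, but lower at -0.52 with FDR 0.0401 under UniSp2 scaling) and let-7c-1-3p (higher), the last with at most 6 reads in a sample and 0 in 40 of the 48, and not called with the rat as a block (FDR 0.159), with DESeq2 (FDR 0.570), with UniSp2 scaling (FDR 0.110) or without rat 2, 7, 17 or 21 (FDR 0.288 without rat 2). In the main analysis no 3p arm was called at week 1 (0 of 3 tested by edgeR, 2 of all 12 with an unadjusted p under 0.05) or week 4 (0 of 12, 1 with an unadjusted p under 0.05). DESeq2 called let-7b-3p lower at week 1 (log2 fold change -0.86, FDR 0.0411) and no arm at week 4. Library size (-0.92, FDR 0.0487) and UniSp2 scaling (-1.08, FDR 0.0239) also called let-7b-3p lower at week 1. UniSp2 scaling called the identical pair lower at week 4 (-0.51, FDR 0.0494).

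Mammalian genomes hold let-7 hairpins in clusters with relatives of miR-100 and miR-125, of which 11 mature miRNAs were listed. At week 8, 8 of these 11 were called lower than at baseline and 0 higher, where 26.1% of all 620 miRNAs tested were called lower. With UniSp2 scaling the other 3 were called lower too. In the cluster of let-7e, miR-99b-5p had a log2 fold change of -1.83 (SE 0.24, FDR 1.30e-08) with ranges of 141 to 728 RPM at baseline and 43.5 to 147 RPM at week 8, and miR-125a-5p one of -1.61 (SE 0.26, FDR 1.31e-06). miR-125a-3p was at -0.95 (FDR 0.000231), and from the same cluster let-7e-5p was at 0.08 and miR-99b-3p at 0.13, neither of them called. The let-7e-5p value took either sign when single rats were left out (-0.49 to 0.37). In the cluster of let-7c, miR-99a-5p had a log2 fold change of -1.002 (SE 0.15, FDR 1.40e-07) and miR-125b-2-3p of -0.48 (SE 0.12, FDR 0.0011), beside -0.58 for let-7c-5p. miR-99a-3p was at 0.40 and not called, but was called higher with DESeq2 (0.53, FDR 0.0495), with edgeR's filterByExpr filter on low counts (0.55, FDR 0.034) and without rat 5 (0.64, FDR 0.0279). In the cluster of a let-7a hairpin, miR-100-5p had a log2 fold change of -0.42 (SE 0.16, FDR 0.0305) and miR-125b-1-3p of -1.33 (SE 0.24, FDR 5.08e-06), beside 0.07 for let-7a-5p, and miR-100-3p was not called. The call of miR-100-5p was lost with DESeq2 (FDR 0.148), RLE scaling (FDR 0.154), filterByExpr (FDR 0.133), a fit of the 2 time points alone (FDR 0.0511) and without rat 2, 3, 5, 6, 7, 17, 23, 25 or 29 (FDR up to 0.206). miR-125b-5p, which both of these clusters encode, ranged from 667 to 4706 RPM (median 1545) at baseline and from 109 to 725 RPM (median 356) at week 8, with the lowest log2 fold change among the partners, -2.10 (SE 0.31, FDR 1.40e-07). The other hairpins of let-7a and let-7c lie outside these clusters, and differences between partners and members were not tested.

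At the earlier time points miR-125b-2-3p was called lower, at week 1 (-0.38, SE 0.12, FDR 0.0245) and at week 4 (-0.65, SE 0.12, FDR 0.000114), and miR-125b-1-3p at week 4 (-0.87, SE 0.22, FDR 0.00689). The week 1 call of miR-125b-2-3p was lost with no filter (FDR 0.0606) and without rat 5, 7, 23 or 25 (FDR up to 0.111). The rat as a block (FDR 0.0413), DESeq2 (FDR 0.00913), library size scaling (FDR 0.0275) and filterByExpr (FDR 0.0257) added miR-125b-1-3p at week 1, and RLE scaling added miR-125b-5p (FDR 0.0478). UniSp2 scaling added miR-125a-3p, miR-125b-1-3p, miR-125b-5p, miR-99a-3p, miR-99a-5p and miR-99b-5p at week 1, all lower, where it called 59 of 445 miRNAs lower. At week 4 UniSp2 scaling added miR-125a-3p, miR-99a-3p, miR-99a-5p and miR-99b-3p, all lower, where it called 60 of 470 miRNAs lower. Library size scaling (FDR 0.0416) and a fit of the 2 time points alone (FDR 0.0304) added miR-99b-3p at week 4. Leaving out single rats also added partners at both weeks. In the main analysis the partners called were 1 of 7 tested at week 1, where 21.6% of all miRNAs tested were called, and 2 of 11 at week 4, where 4.19% were. Against week 4, 5 of the 11 partners were lower at week 8 (miR-99a-5p, miR-99b-5p, miR-125a-5p, miR-125a-3p and miR-125b-5p) and 2 were higher, miR-99a-3p (0.98, SE 0.24, FDR 0.00062) and miR-99b-3p (0.69, SE 0.21, FDR 0.0064, and 0.0525 without rat 26), where 40.0% of all miRNAs tested were called. With UniSp2 scaling miR-99b-3p turned to lower (-0.83, FDR 0.00386) and miR-99a-3p was at -0.53 and not called (FDR 0.0788). DESeq2 called miR-125b-2-3p higher as well (0.29, FDR 0.0431), as did the filterByExpr filter (0.33, FDR 0.0166), whereas it was lower with UniSp2 scaling (-1.43). The call of miR-125a-3p was lost with DESeq2 (FDR 0.147), with library size or RLE scaling, with either other filter setting, in a fit of the 2 time points alone and without rat 2, 3, 5, 6, 7, 17, 21, 23, 25 or 29 (FDR up to 0.224).

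**Figure D4:**
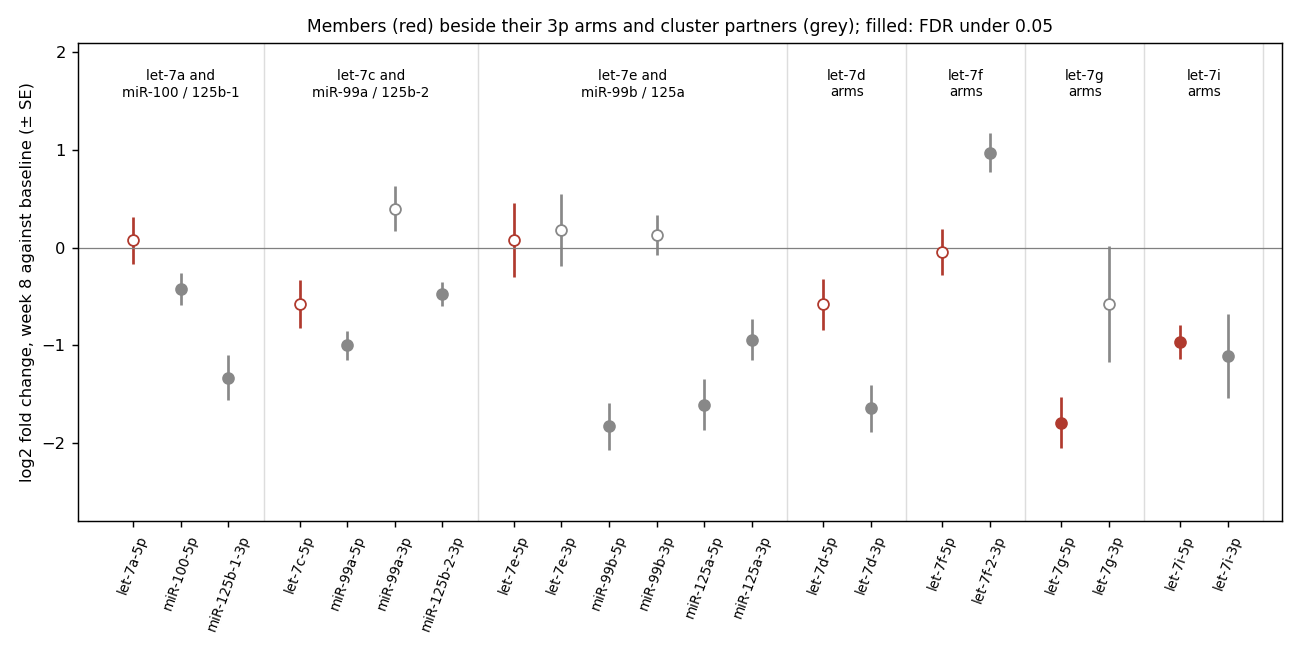
Log2 fold change at week 8 against baseline with its SE for members (red), their 3p arms and their cluster partners (grey), grouped by hairpin or cluster, with TMM scaling and filled symbols for an FDR under 0.05. In the let-7e group let-7e-5p sits at 0.08 (-0.49 to 0.37 when single rats are left out) beside miR-99b-5p at -1.83. In the let-7f group let-7f-2-3p sits at 0.97 (-0.96 with UniSp2 scaling) beside let-7f-5p at -0.04.

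Strong and weak regenerators were compared over all time points and at each of them. Over all time points, edgeR called 0 of 9 members, beside 0 of 645 miRNAs (0.0%), and DESeq2 also called 0 members. No member had an unadjusted p under 0.05 by edgeR, where 64 of 645 miRNAs did. The log2 differences, strong minus weak, ranged from -0.11 (SE 0.27, let-7e-5p) to 0.10 (SE 0.18, let-7g-5p). Before surgery edgeR called 0 of 9 members and 0 of 645 miRNAs (0.0%). The samples of week 1 gave 0 members and 0 miRNAs (0.0%), those of week 4 gave 0 members and 0 miRNAs (0.0%), and those of week 8 gave 0 members and 1 miRNA (0.155%). None of these 3 later comparisons held a member with an unadjusted p under 0.05, where 32, 25 and 35 of 645 miRNAs had one at weeks 1, 4 and 8. DESeq2 called 0 members at each time point.

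The baseline samples held the largest estimates, for 4 members with an unadjusted p under 0.05 that did not pass the correction (42 of 645 miRNAs had such a p in the same comparison). let-7a-5p ranged from 84.7 to 169 RPM (median 158) in strong and from 56.0 to 97.8 RPM (median 77.3) in weak regenerators, with some overlap. Its log2 difference was 0.89 (SE 0.32, unadjusted p = 0.00747, FDR 0.535, edgeR). let-7c-5p ranged from 894 to 2064 RPM (median 1634) in strong and from 673 to 1291 RPM (median 819) in weak regenerators, a log2 difference of 0.82 (SE 0.33, FDR 0.608). let-7b-5p had a log2 difference of 0.80 (SE 0.32, FDR 0.608), and let-7g-5p, from 1915 to 5312 RPM (median 3492) in strong and from 1447 to 2955 RPM (median 2160) in weak regenerators, one of 0.70 (SE 0.34, FDR 0.703). miR-98-5p lay at -0.01 (SE 0.19). The total count of the strong samples was lower at baseline (median 690948 against 1068590), the sum of the 4 muscle miRNAs ranged from 422 to 9869 RPM (median 2014) in strong and from 312 to 1693 RPM (median 1123) in weak regenerators, and the leukocyte sum had medians of 32741 and 32781 RPM. Their part in the baseline values was not tested.

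At weeks 1 and 8 the estimates lay between -0.48 (SE 0.53, let-7e-5p at week 8) and 0.20 (SE 0.39, let-7d-5p at week 8), and at week 4 between -0.61 (SE 0.55, let-7e-5p) and 0.05 (SE 0.19, miR-98-5p). The week 8 medians of let-7e-5p went the other way, 26.9 RPM in strong and 20.6 RPM in weak regenerators, where rat 26 among the weak held 155 RPM. The change from baseline was compared between the groups by the interaction of regeneration and week. At week 4, 0 of 9 members were called, beside 0 of 645 miRNAs (0.0%). An unadjusted p under 0.05 was held by 4 members and by 38 of 645 miRNAs. For let-7c-5p the log2 change from baseline was lower by 1.43 in strong than in weak regenerators (-1.43, SE 0.46, unadjusted p = 0.00306, FDR 0.532, edgeR), and the same difference was -1.31 (SE 0.46) for let-7b-5p, -1.30 (SE 0.45) for let-7a-5p and -1.25 (SE 0.48) for let-7g-5p, each with an FDR of 0.532. let-7g-5p was lower at week 4 than at baseline in 5 of 6 strong and 0 of 6 weak rats, and let-7a-5p in 6 of 6 and 2 of 6. The highest week 4 levels of let-7c-5p and let-7g-5p came from rat 7 among weak (2184 and 7824 RPM) and rat 5 among strong regenerators (1474 and 5928 RPM). The interactions were not refitted without single rats. The interaction at week 1 called 0 members and 0 of 645 miRNAs (0.0%), with an unadjusted p under 0.05 for 3 members and 27 of 645 miRNAs. That at week 8 called 0 members and 0 of 645 miRNAs (0.0%), with such a p for 2 members and 26 of 645 miRNAs. DESeq2 gave no call at any of the 3 weeks. These interactions and the baseline comparison share the baseline samples.

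**Figure D5:**
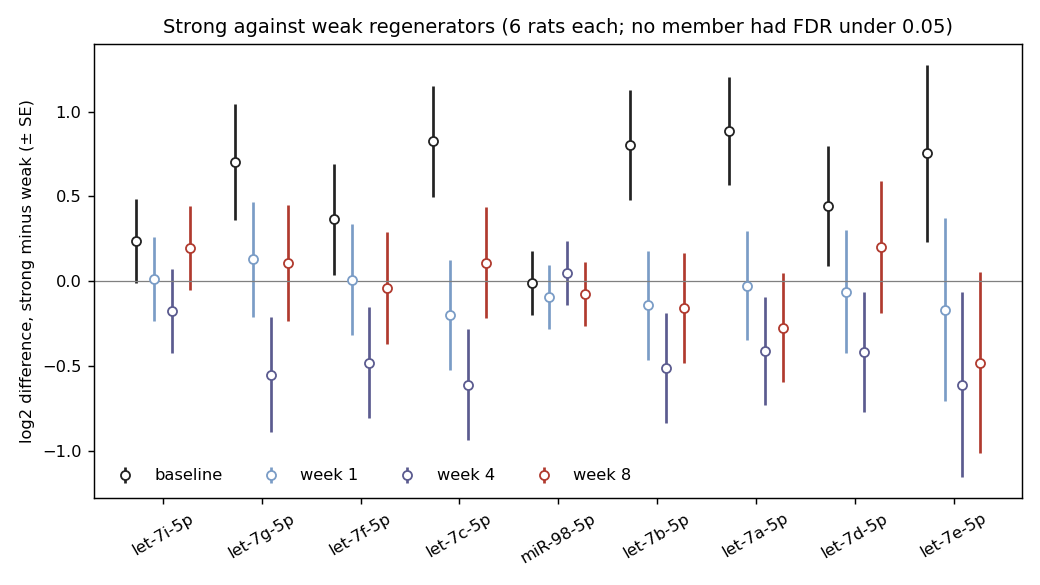
Log2 difference between strong and weak regenerators with its SE for each member at baseline and weeks 1, 4 and 8 (edgeR, 6 rats per group), members ordered by mean level. The baseline estimates of let-7a-5p (0.89), let-7c-5p (0.82) and let-7b-5p (0.80) stand highest, and no estimate had an FDR under 0.05.

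The levels of most members went up and down together over the 48 samples, which share their libraries and include 4 samples of each rat. The Pearson r of log2(RPM + 1) over the 36 pairs had a median of 0.63, and of 0.68 after the mean of each week was taken out. Over all samples r was highest for let-7b-5p with let-7c-5p (0.95), which differ by 1 base. Next came let-7g-5p with let-7i-5p (0.90), which differ by 2, and let-7a-5p with let-7f-5p (0.87), which differ by 1. With the week means taken out, let-7b-5p with let-7c-5p stayed highest (0.95), but let-7g-5p with let-7i-5p dropped to 0.76. Pairs that then lay above it included let-7a-5p with let-7c-5p (0.88), let-7c-5p with let-7f-5p (0.87) and let-7a-5p with let-7f-5p (0.86). miR-98-5p stood apart with r between -0.17 (let-7g-5p) and 0.26 (let-7f-5p), and within weeks between -0.03 (let-7g-5p) and 0.38 (let-7i-5p).

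Among 297 other miRNAs with a mean of at least 10 RPM, the summed family was most like miR-151-5p (r = 0.91), miR-3559-5p (0.87) and miR-30e-5p (0.85). let-7g-5p was most like miR-30e-5p (r = 0.96, and 0.89 within weeks) and let-7i-5p most like miR-3559-5p (0.91, and 0.75 within weeks). let-7b-5p, let-7c-5p and let-7e-5p were each most like miR-195-5p (r = 0.77, 0.77 and 0.61), let-7a-5p and let-7f-5p most like miR-652-3p (0.67 and 0.78), and let-7d-5p most like miR-15b-5p (0.71). For miR-98-5p the highest r was that with miR-451-5p, the abundant miRNA of red blood cells (0.63), and its r with the log2 ratio of miR-451-5p to miR-23a-3p, a measure of haemolysis, was 0.72, against -0.26 for let-7g-5p and -0.10 for let-7i-5p. That log2 ratio had a median of 2.30 before surgery, of 2.74 and 2.55 at weeks 1 and 4, and of 3.03 at week 8, and its part in the miR-98-5p values was not tested.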

How the data were processed

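The authors trimmed reads with cutadapt 3.3, used Bowtie 1.3.0 and miRDeep2 to map them against the genome first and against miRBase rat miRNAs next, with a mismatch allowed, and deposited raw read counts for 645 miRNAs and 3 spike-ins, without normalization. The submitters' processing notes list a human genome build, GRCh38.p12, and no coordinates are given here. Reads had no molecular identifiers in the sources used here, so copies made by amplification could not be told from separate molecules.

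Weeks were compared with edgeR 4.0.16 in R 4.3.3 on all 48 samples (quasi-likelihood, TMM, an abundance filter after the DESeq2 rule, two-sided, Benjamini-Hochberg over all miRNAs tested, calls at an FDR under 0.05), treating the 4 samples of a rat as independent. Single weeks and interactions used 8 group means. Levels are RPM of the miRNA total, with spike-ins left out. Alternatives were DESeq2 1.42.0, limma 3.58.1 (voom), other scalings and filters, the rat as a block, fewer or summed samples and each rat left out. A number in the labels marks a rat, and its samples were thus paired by animal. Their deviations had a mean r of 0.107, against -0.008 between rats, and 6 of 12 rats were over 0.1. No samples were copies (chi-square per degree of freedom at least 23.0 over 1128 pairs). The edgeR script was tested on simulated data.

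All members were named, 3p arms and partners where called, and the most alike miRNAs by Pearson r of log2(RPM + 1). The partners were taken as miRNAs transcribed with a let-7. The members and lists were chosen with earlier results of these data known. Tables used Python 3.11.15, numpy 2.4.6, scipy 1.17.1, pandas 2.3.3 and matplotlib 3.10.9.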

Additional observations from a re-analysis of the deposited data

Results flagged for a closer look

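Of 72 groups of 6 samples (9 members, 8 groups), 12 held a sample whose gap to its nearest neighbour exceeded Dixon's 95% critical value for gap over range. Chance passes that limit in about 1 group in 20 where values are normally distributed. The gaps were taken on RPM without a log, and whether these values were normally distributed was not tested. The 12 came from 3 samples, all with levels above the rest of their group. In rat 7, a weak regenerator at week 4, they were let-7a-5p (192.5 RPM, others at most 104 RPM), let-7b-5p (1259 RPM, others at most 594 RPM), let-7d-5p (91.0 RPM, others at most 47.5 RPM), let-7f-5p (3635 RPM, others at most 2190 RPM) and let-7i-5p (21088 RPM, others at most 15070 RPM). In rat 5, a strong regenerator at week 4, they were let-7b-5p (963 RPM, others at most 429 RPM), let-7c-5p (1474 RPM, others at most 813 RPM), let-7g-5p (5928 RPM, others at most 2383 RPM) and let-7i-5p (20310 RPM, others at most 13852 RPM). In rat 26, a weak regenerator at week 8, they were let-7b-5p (948 RPM, others at most 426 RPM), let-7c-5p (1726 RPM, others at most 732 RPM) and let-7e-5p (155 RPM, others at most 50.4 RPM). The members of a sample share its library, so the 12 are not independent.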

How the results depend on the processing

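Of 1116 fits of a member under an alternative, 1059 kept its direction or lack of a call, 26 lost a call, 25 gained one and 6 gained a call in the other direction. The last 6 came with UniSp2 scaling, at week 8 against baseline for let-7a-5p (-1.81), let-7e-5p (-1.75) and miR-98-5p (-1.69) and against week 4 for let-7a-5p (-1.34), let-7f-5p (-1.48) and miR-98-5p (-1.53). At week 8 against baseline, 3 members were called in the main analysis. The count was 5 with library size scaling, 9 with UniSp2 scaling, 5 with the replicate block and 2 to 5 without each rat in turn. DESeq2, RLE scaling and another filter called let-7g-5p and let-7i-5p lower and miR-98-5p higher, and did not call let-7b-5p. Against week 4, 3 were called, 8 with UniSp2 scaling and 2 to 4 without each rat. DESeq2, RLE scaling, another filter and a fit of the 2 time points alone called 2 against week 4, let-7g-5p and let-7i-5p. At week 1, 0 were called, 1 with DESeq2, RLE or another filter and 0 to 1 without each rat. The cause of the other changes was not tested. The block by rat changed no other call of a member. Summing members within 1 base gave 19.3% of the family's reads in place of the single shares of let-7a-5p (0.585%), let-7b-5p (2.93%), let-7c-5p (5.47%), let-7e-5p (0.173%) and let-7f-5p (10.1%).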
